A study of Mus musculus with 40 samples.

Results

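The genes described here are 7 receptors and effectors of natural killer (NK) cells: Ncr1, Klrk1, Klrd1, Klrb1c, Il2rb, Xcl1 and Ifng. They were taken by symbol from the deposited tables of 39012 Ensembl genes, and all 7 were found there. Their RNA was measured by bulk sequencing of 40 whole tumors, each from a different mouse. The tumors were grown from EMT-6, a mammary carcinoma line, implanted in the mammary pad of Balb/C mice aged 8 to 12 weeks, with the first dose after 20 days of growth, when tumors averaged near 400 mm3. Intravenous doses fell on days 0, 1 and 2, and day 6 was the day of collection. There were 4 groups of 10. The isotype control was an inactive antibody (400 µg), and the trap control carried the TGF-β trap on a mutated antibody that stands in for the PD-L1 binder (492 µg). The other groups were given active anti-PD-L1 (400 µg) or the bifunctional protein, which joins active anti-PD-L1 with the trap (492 µg). A whole tumor holds tumor cells, host stroma and infiltrating cells, and the tumors come from a single transplanted line. In such bulk RNA, fewer cells of a type and less RNA per cell cannot be told apart.

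NK cells are innate lymphocytes that kill stressed or transformed cells without a rearranged antigen receptor, weighing signals from activating and inhibitory receptors. Interleukin-15 keeps them alive through a receptor that contains the Il2rb chain, and they answer with granule proteins, the chemokine Xcl1 and the cytokine Ifng. TGF-β is known to restrain NK cell killing and cytokine release. Most of these genes are not exclusive to NK cells: Klrk1, Klrd1, Il2rb, Xcl1 and Ifng are also expressed by T cells, and Ncr1 is the most restricted of them, to NK cells and some innate lymphoid cells.

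The promoters of 4 of these genes are shown because the genes rose together in 1 comparison or, for Ifng, because too few reads were present for a test. RefSeq's promoter table (build GRCm38.p6) held 5 of the 7 genes; Klrd1 and Il2rb are named only. Each sequence is the 250 bases before the annotated start, 5′ to 3′ on the gene's strand, and capitals mark motif matches on either strand: T-box GTGTGA, Runx TGTGGT, and STAT TTCNNNGAA. The windows are chr7:4337465-4337714 (plus strand) for Ncr1, chr6:129623865-129624114 (minus) for Klrk1, chr1:164935523-164935772 (minus) for Xcl1 and chr10:118440796-118441045 (plus) for Ifng.
Ncr1: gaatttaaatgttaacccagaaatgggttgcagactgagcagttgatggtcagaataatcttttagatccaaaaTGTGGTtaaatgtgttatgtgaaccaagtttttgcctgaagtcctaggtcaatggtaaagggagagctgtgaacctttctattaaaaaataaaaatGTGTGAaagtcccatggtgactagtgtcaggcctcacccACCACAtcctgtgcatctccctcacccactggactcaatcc
Klrk1: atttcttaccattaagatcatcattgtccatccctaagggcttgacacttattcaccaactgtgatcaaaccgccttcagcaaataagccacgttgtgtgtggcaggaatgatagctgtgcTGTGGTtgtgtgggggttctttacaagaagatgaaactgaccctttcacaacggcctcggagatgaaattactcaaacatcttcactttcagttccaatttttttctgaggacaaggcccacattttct
Xcl1: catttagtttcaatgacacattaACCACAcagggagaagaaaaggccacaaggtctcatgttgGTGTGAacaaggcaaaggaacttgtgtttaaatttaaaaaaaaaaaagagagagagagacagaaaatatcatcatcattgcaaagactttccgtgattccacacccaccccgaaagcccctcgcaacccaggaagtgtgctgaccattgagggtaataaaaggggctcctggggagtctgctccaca
Ifng: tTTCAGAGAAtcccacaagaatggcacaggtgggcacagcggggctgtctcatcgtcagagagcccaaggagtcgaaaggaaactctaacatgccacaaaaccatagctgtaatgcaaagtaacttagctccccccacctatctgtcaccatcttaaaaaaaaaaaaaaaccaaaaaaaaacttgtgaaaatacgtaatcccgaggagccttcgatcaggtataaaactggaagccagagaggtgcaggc
A Runx match lay in 4 of the 5 promoters (Ncr1, Klrk1, Klrb1c and Xcl1), against 14.2% of 27025 promoter windows of the same length. The T-box match lay in Ncr1 and Xcl1 (12.2% of all windows) and the STAT match in Ifng (7.18%). In Ncr1 the T-box match lay 80 to 75 bases before the start, between Runx matches at 176 to 171 and at 41 to 36. AP-1 (TGANTCA, 6.87% of all windows) and Ets (CCGGAAG, 7.05%) matched none of the 5. No marked motif overlapped another in these 4 sequences. A match of letters is a description and shows no binding.

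The libraries fell into sets by library number, which are kept apart throughout. Set 1 (C0449 to C0464) held 10 isotype control and 6 trap control libraries, and set 2 (C0465 to C0488) held 4 trap control, 10 anti-PD-L1 and 10 bifunctional libraries. Total expected counts ran from 13495835 to 25108601 in set 1 and from 21987948 to 27658263 in set 2. Signal recognition particle and mitochondrial ribosomal RNA (Rn7s1, Rn7s2, mt-Rnr1 and mt-Rnr2) took 29.7% to 62.3% of counts in set 1 and 11.7% to 18% in set 2. Within set 2 the treatments also follow the library numbers, so that a processing difference along the numbers cannot be told apart from treatment. The labels name no batch.

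All 7 genes were low in these tumors. On the TPM scale, which divides by transcript length, the bifunctional group had mean levels of 1.04 ± 0.217 TPM for Il2rb, 0.96 ± 0.362 for Klrk1, 0.608 ± 0.221 for Xcl1, 0.605 ± 0.204 for Ncr1, 0.534 ± 0.149 for Klrd1, 0.138 ± 0.0575 for Klrb1c and 0.084 ± 0.0453 for Ifng (SD, n = 10). Among neighbours in this order, only the step from Klrd1 down to Klrb1c was larger than the larger SD of the pair. With anti-PD-L1 Klrk1 came first (0.421 ± 0.18 TPM) and Il2rb followed (0.339 ± 0.108), a step within their spread, and the step that exceeded the spread was from Ncr1 (0.213 ± 0.0698) to Klrb1c (0.077 ± 0.0585). Ifng was the lowest of the 7 in every group. In the isotype control group it had 2 reads in all, 1 in each of 2 libraries, and 8 of 10 libraries had 0 reads, which allows up to 0.109 to 0.176 CPM (a count scaled to the size of its library) in them at 3 counts per library. Reads of Klrb1c and Ifng are partly uncertain: of the 50-base windows in their transcripts, 17% of those of Klrb1c also occur in Klrb1a, Klrb1b or 2 other gene models (Klrb1-ps1, Gm44511), and 19.9% of those of Ifng in the overlapping model Gm49751. The other 5 genes shared no such window. Balb/C mice lack the Klrb1c epitope that marks NK cells in C57BL/6 mice, and the submitters' notes name the mm10 genome, which is of C57BL/6.

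**Figure D1:**
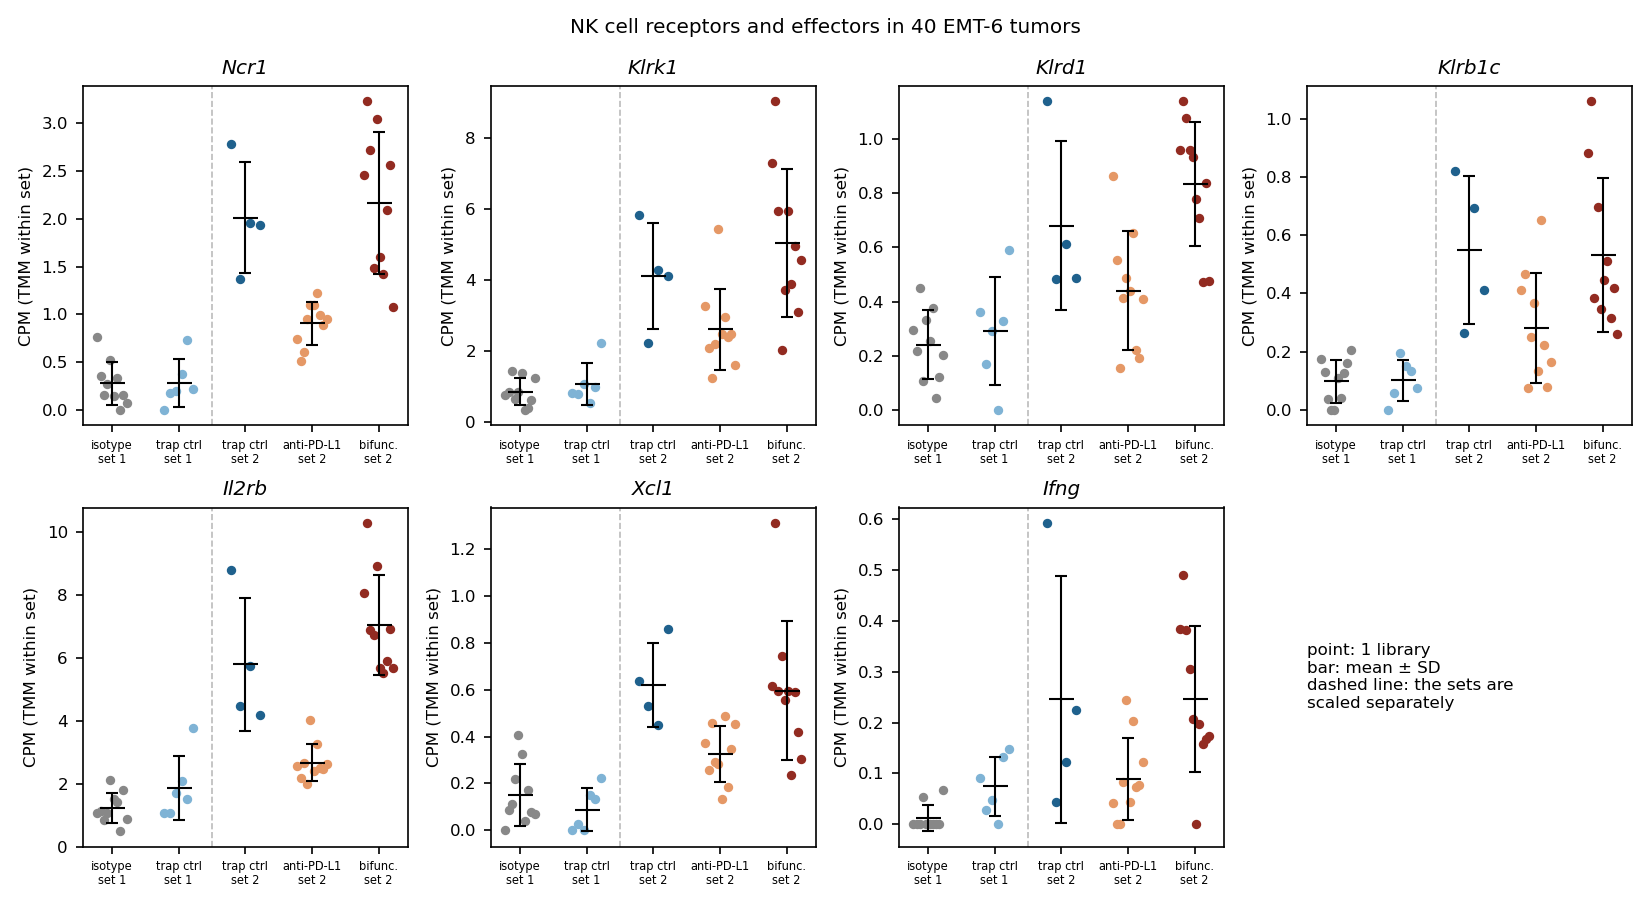
CPM of each of the 7 genes in the 40 tumor libraries, 1 point per library, with the mean and SD of each group and set; the 2 sets are scaled separately. In Il2rb the bifunctional points (5.52 to 10.3 CPM) all lie above the anti-PD-L1 points (1.99 to 4.03 CPM). How many of all genes separate in this way was not counted.

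The first comparison concerns the addition of the trap to PD-L1 blockade: bifunctional against anti-PD-L1 tumors, 10 against 10, all in set 2. Il2rb, Ncr1, Klrk1, Klrd1 and Xcl1 rose in bifunctional tumors, by 0.86 to 1.40 on the log2 scale. Of the 6 genes with enough reads to test, 5 passed in edgeR's quasi-likelihood test (adjusted p under 0.05 over all genes), all 5 higher; the same test called 25.6% of 15704 genes in either direction and 12.4% higher. The median log2 difference of the 6 was 0.94, against 0.01 over all genes tested. Over all genes 1951 were higher and 2063 lower, but the split varied with the processing. It was 2177 to 1688 with DESeq2's size factors in place of TMM and 2571 to 1575 with all 40 libraries in 1 fit, which also changed the genes tested. With limma on log2(TPM + 1), another unit and tool, it was 3043 to 43, with a median over all genes of 0.15.

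Ncr1 (chromosome 7, 4337724 to 4345164, plus strand, mm10; ENSMUSG00000062524) encodes NKp46, an activating receptor. It had 12 to 30 reads per anti-PD-L1 library with a median of 23, and 25 to 88 with a median of 57 in bifunctional libraries. Its level was 0.907 ± 0.226 against 2.17 ± 0.743 CPM (SD, n = 10 each). Every bifunctional library (10 of 10) exceeded the median with anti-PD-L1, and 9 exceeded its highest library, C0488 being the exception. Ncr1 rose by 1.25 in log2 units, with a standard error (SE) of 0.207 and a 95% interval of 0.83 to 1.68 (edgeR adjusted p = 0.00255).

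Klrk1 (chromosome 6, 129610323 to 129623864, minus strand; ENSMUSG00000030149) encodes NKG2D, an activating receptor for stress ligands. It had 32, 60 and 133 reads (lowest, median and highest) with anti-PD-L1 and 46, 116.5 and 221 with the bifunctional protein. The groups overlapped: 4 bifunctional libraries lay above the highest anti-PD-L1 library, C0473, which stood apart from its group. Klrk1 rose by 0.95 (SE 0.256, edgeR adjusted p = 0.0142). Klrd1 (chromosome 6, 129591782 to 129598775, plus strand; ENSMUSG00000030165) encodes CD94, which pairs with NKG2 chains and reads the non-classical molecule Qa-1. Its reads were 4, 10 and 21 with anti-PD-L1 and 11, 21.5 and 31 with the bifunctional protein, all 10 above the anti-PD-L1 median and 5 above its highest library. Klrd1 rose by 0.93 (SE 0.273, edgeR adjusted p = 0.0199).

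Klrb1c (chromosome 6, 128778485 to 128789215, minus strand; ENSMUSG00000030325), an activating member of the NKR-P1 family, did not pass. It had estimated reads of 2, 6 and 15.87 with anti-PD-L1 and 5.8, 11.43 and 26.17 with the bifunctional protein. All 10 bifunctional values exceeded the median with anti-PD-L1, but only 3 exceeded its highest library. The difference was 0.91 (SE 0.36, edgeR adjusted p = 0.0633; interval 0.17 to 1.65), and DESeq2 placed it on the other side of the threshold (0.95, adjusted p = 0.0497).

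Il2rb (chromosome 15, 78479256 to 78495271, minus strand; ENSMUSG00000068227), the signaling chain shared by the receptors of interleukin-2 and interleukin-15, separated the groups most clearly. It had 48, 64 and 99 reads with anti-PD-L1 and 131, 159.5 and 258 with the bifunctional protein, or 2.67 ± 0.584 against 7.06 ± 1.59 CPM (SD, n = 10 each). The 2 groups did not overlap, but how many of all genes separate in this way was not counted. Il2rb rose by 1.40 (SE 0.153, edgeR adjusted p = 3.9e-05; interval 1.09 to 1.72) and had the smallest p of the 15704 genes tested.

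Among the effectors, Xcl1 (chromosome 1, 164931644 to 164935527, minus strand; ENSMUSG00000026573) encodes the chemokine that draws cross-presenting dendritic cells. It had 3, 8 and 12 reads with anti-PD-L1 and 6, 16 and 32 with the bifunctional protein. The groups overlapped, and C0480 stood above all other bifunctional libraries. With all libraries Xcl1 rose by 0.86 (SE 0.272, edgeR adjusted p = 0.027), but without C0480 and C0481 the difference was 0.63 (adjusted p = 0.0784). Ifng (chromosome 10, 118441046 to 118445892, plus strand; ENSMUSG00000055170), the cytokine interferon-γ that activates macrophages and antigen presentation, had too few reads to pass the filter on low counts. It had 0, 2 and 6 reads with anti-PD-L1 and 0, 5.5 and 12 with the bifunctional protein, 22 against 63 reads in all. Of 10 bifunctional values 9 exceeded the median with anti-PD-L1, and the other library, C0484, had 0 reads. Without the filter the difference was 1.41 (SE 0.558, edgeR adjusted p = 0.0897).

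**Figure D2:**
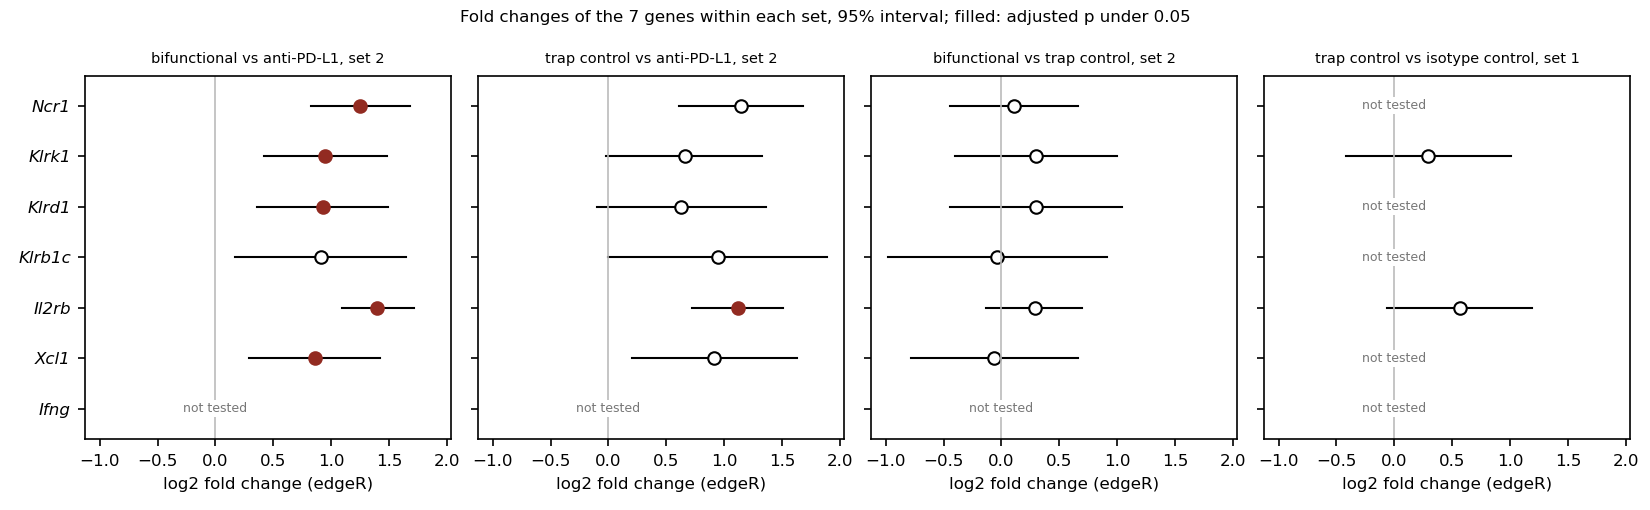
Log2 fold changes from edgeR with 95% intervals for the 7 genes in 4 comparisons made within a set; filled points have an adjusted p under 0.05. Ifng had too few reads for a test, as had 4 other genes in set 1. The tested intervals of bifunctional against trap control all include 0, while 5 of 6 genes are filled in bifunctional against anti-PD-L1.

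Host tissue transcripts moved with the same comparison. Of 9 skeletal muscle genes 8 were called higher with the bifunctional protein, with none of the 9 at 0 in all libraries of a group, and their summed level was 1.53 to 259 CPM in anti-PD-L1 libraries and 1.47 to 3829 CPM in bifunctional ones. Keratinocyte genes were called in 2 of 3 and adipocyte genes in 3 of 8, against 25.6% of all genes in either direction. The libraries C0479 and C0484 had the highest muscle scores of set 2. Without these 2 libraries only Ncr1 (1.30, edgeR adjusted p = 0.00624) and Il2rb (1.43, adjusted p = 0.000181) of the 7 genes were called. Calls over all genes fell as well, to 760 of 15480 from 4014 of 15704. Klrk1 was then at 0.86 (adjusted p = 0.0634), Klrd1 at 0.94 (0.0601 for the adjusted p) and Xcl1 at 0.87 (0.0799). With scores of the muscle, skin and fat lists as covariates the called genes of the 7 were again Ncr1 (1.21, edgeR adjusted p = 0.00763) and Il2rb (1.36, adjusted p = 0.000176). Over all genes 870 of 15704 were called with these covariates. Klrk1 was then at 0.69 (edgeR adjusted p = 0.0978), Klrd1 at 0.81 (0.0759 for the adjusted p) and Xcl1 at 0.72 (0.109). The median of the 6 tested genes was 0.77 with these covariates, and 5 of the 6 had an unadjusted p under 0.05, as had 3909 of 15704 genes.

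T cell genes moved alongside. Over all genes 12.4% were called higher in this comparison. Of 12 tested T cell markers 8 rose, with a median of 1.18, among them Cd6 (1.72), Trbc2 (1.57) and Cd4 (1.60). The 13 markers summed to 8.23 to 12.5 CPM (median 10.4) in anti-PD-L1 libraries and 10.6 to 26.6 CPM (median 14.2) in bifunctional ones. None of them was at 0 in a whole group. Much of this sum was Lck, which was not called, at 6.19 ± 0.829 CPM with anti-PD-L1 and 6.01 ± 1.72 CPM with the bifunctional protein. Which cells gave the Lck reads was not tested. Pan-leukocyte genes rose in 3 of 5 (median 0.39) and macrophage genes in 6 of 8 (median 0.54). EdgeR called none of 4 neutrophil genes, with 1 at an unadjusted p under 0.05, against 6390 of 15704 genes. DESeq2 called none of the 4, and 4441 genes in all. The part of T cells and other leukocytes in the rise of the genes they share with NK cells was not tested. Ncr1 was set against the T cell receptor complex directly, as log2 of Ncr1 over the sum of Cd3d, Cd3e and Cd3g with 0.1 CPM added to each. These Cd3 genes together had only 13 to 36 reads per anti-PD-L1 library and 20 to 92 per bifunctional library. This ratio was 0.23 ± 0.74 with the bifunctional protein and 0.13 ± 0.38 with anti-PD-L1 (SD, n = 10 each), a difference of 0.10 that did not exceed the spread (two-sided permutation test with 100000 resamples, p = 0.705; 0.705 after Benjamini-Hochberg adjustment over 4 comparisons), with 4 of 10 bifunctional libraries above the anti-PD-L1 median. Without C0479 and C0484 the difference was 0.29 (exact permutation test, p = 0.284), and on TPM it was 0.02 (permutation test, p = 0.933). With so few reads, a missed threshold does not show that Ncr1 and the Cd3 genes moved equally.

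Many genes of a list of other NK cell receptors rose with these genes: 13 of 21 tested passed, all higher, with a median of 0.92, against 12.4% of all genes called higher. Others did not rise: Itga2 was at 13.6 ± 3.13 CPM with anti-PD-L1 and 11.4 ± 3.88 CPM with the bifunctional protein, and Tigit at 0.79 ± 0.253 and 0.77 ± 0.379 CPM (SD, n = 10 each). The smallest adjusted p belonged to Klrg1 (1.93), an inhibitory receptor of mature cells, Klrc2 (1.85), an activating NKG2 chain that pairs with Klrd1, Cd96 (1.47) and Klri2 (1.13). Klrg1 had 3 to 14 reads per anti-PD-L1 library and 10 to 54 per bifunctional library, and Klrc2 1.16 to 9.22 and 7.38 to 28.35. In the signaling list 7 of 12 rose, including Zap70 (1.24), the kinase Txk (1.15) and the adapter Sh2d2a (1.57), while Tyrobp and Hcst, the adapters of activating receptors, did not pass at 0.29 and 0.51. Of 10 transcription factors 4 rose, against 12.4% of all genes called higher: Ikzf3 (1.75), Tbx21 (2.00), Tox (1.88) and Zeb2 (0.35). Tox had 0 to 8 reads per anti-PD-L1 library and 3 to 17 per bifunctional library, and Tbx21 1 to 8 and 5 to 19. At such counts both passed the filter on low counts through libraries outside the anti-PD-L1 group, which favors a rise among the genes tested. Eomes, the factor that with Tbx21 shapes NK cells, was at 0.01 (edgeR adjusted p = 0.988).

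Around Il2rb, 4 of 11 genes of the interleukin-2 and interleukin-15 axis rose: Il2ra (0.62), the target gene Cish (0.93), the partner chain Il2rg (0.51) and the kinase Jak3 (0.21). Over all genes 12.4% were called higher. The cytokine Il15 itself was at 0.07 (edgeR adjusted p = 0.706). In the interleukin-12 and interleukin-18 list of 8, Stat4 (0.96), Il18r1 (1.05), Il18bp (0.75) and Il12rb2 (0.86) rose, and Il18rap fell by 0.37.

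The ligands went differently. Of 4 tested ligands of NKG2D, the receptor encoded by Klrk1, none rose and 2 fell, against 13.1% of all genes called lower. Ulbp1 fell by 0.50 (edgeR adjusted p = 0.00679) and Raet1e by 0.55 (edgeR adjusted p = 0.0497). The listed ligands Raet1a, Raet1b, Raet1c and H60a were not found by symbol, so the ligands are covered only in part. The part of strain differences from the mm10 genome in the ligand reads was not tested. Ulbp1 was abundant, at 49.6 ± 6.57 CPM with anti-PD-L1 and 35.1 ± 7.06 CPM with the bifunctional protein (SD, n = 10 each). Of 4 ligands of CD94/NKG2 and NKR-P1 receptors edgeR called none, 2 had an unadjusted p under 0.05 and DESeq2 called 2. Of all 15704 genes 6390 had an unadjusted p under 0.05, and DESeq2 called 4441. Clec2d was at 0.42 and H2-T23, which encodes Qa-1, at 0.25.

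For Xcl1, its receptor Xcr1 was at 0.56 (edgeR adjusted p = 0.0895). In the same list of 8 dendritic cell genes Clec9a (0.96), Irf8 (0.45) and Tlr3 (0.26) rose. With anti-PD-L1 and the bifunctional protein, Batf3 was at 0.343 and 0.351 CPM, Cadm1 at 63.5 and 63.7, Flt3 at 4.2 and 4.38 and Itgae at 1.08 and 1.43. The part of Xcl1 in these levels was not tested. Over all genes 12.4% were called higher. Killer cell effectors rose in 7 of 12, led by Gzmb (1.99), the granule protein Nkg7 (1.82), Prf1 (2.02) and Gzma (1.87). For Ifng, both receptor chains rose (Ifngr1 0.24, Ifngr2 0.24). Genes induced by interferon-γ rose in 9 of 17, among them Cxcl11 (1.00) and Ciita (0.98), and Wars fell by 0.26.

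The second comparison puts the trap control against anti-PD-L1 within set 2, 4 libraries against 10. Il2rb rose by 1.12 and was 1 of only 2 genes called, beside Gzmb (1.87, both edgeR adjusted p = 0.0385). Of the 6 tested genes 1 was thus called, while the share over all genes was 0.0127% in either direction and 0.0127% for higher alone. The comparison shares its anti-PD-L1 libraries with the first. Il2rb had 193, 101, 141 and 112 reads in the trap control libraries C0465 to C0468, all above the anti-PD-L1 maximum of 99 reads. The groups did not overlap in CPM, but how many of all genes separate 4 from 10 libraries was not counted. The SE of Il2rb was 0.191 and its interval 0.72 to 1.51. The call rested on few libraries: without C0465 Il2rb was at 0.86 (edgeR adjusted p = 0.658) and without C0467 at 1.13 (adjusted p = 0.186).

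Ncr1 had 61, 31, 48 and 52 reads in the 4 trap control libraries. None overlapped the anti-PD-L1 group, again without a count of such genes over all genes. The Ncr1 difference of 1.15 (SE 0.259, interval 0.61 to 1.68) had an edgeR p of 0.000174 and an adjusted p of 0.454. Klrk1 had 128, 50, 105 and 110 reads and differed by 0.66 (interval -0.02 to 1.33). Among the 4 libraries C0465 had the highest CPM for each of the 7 genes but Xcl1, which was highest in C0468. Klrd1 had 25, 11, 15 and 13 reads (difference 0.63), Klrb1c 18, 6.39, 16.71 and 11.14 (0.95), and Xcl1 14, 12, 11 and 23 (0.91), with adjusted p in edgeR of 0.857 to 0.979. Ifng had 13, 1, 3 and 6 reads. Of the 6 tested genes 4 had an unadjusted p under 0.05, as had 772 of 15704 genes. DESeq2 called 1 of the 6, and 3 genes in all.

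The third comparison asks what PD-L1 binding adds to the trap: bifunctional against trap control within set 2, 10 against 4. None of the 6 tested genes was called by edgeR, none had an unadjusted p under 0.05 and DESeq2 called none. Over all genes edgeR called 0.00637%, a single gene, the pseudogene Ppp4r1l-ps. An unadjusted p under 0.05 was found for 2427 of 15704 genes, and DESeq2 called 214. The levels lay close and all groups overlapped: Ncr1 was at 2.17 ± 0.743 CPM (SD, n = 10) against 2.01 ± 0.581 (SD, n = 4), and Il2rb at 7.06 ± 1.59 against 5.8 ± 2.11 CPM. The differences were 0.29 for Il2rb (interval -0.13 to 0.70), 0.11 for Ncr1 (-0.44 to 0.66), 0.30 for Klrk1 (-0.40 to 1.00) and 0.30 for Klrd1 (-0.44 to 1.04). Klrb1c was at -0.04 (-0.98 to 0.91) and Xcl1 at -0.06 (-0.78 to 0.66). These intervals leave room for changes of either sign, so a missed threshold does not show equal levels.

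In set 1 the trap control was compared with the isotype control, 6 against 10. Only Klrk1 and Il2rb had enough reads to test, and edgeR called neither, against 7.34% of 14183 genes called. Neither had an unadjusted p under 0.05, against 3718 of 14183 genes, and DESeq2 called neither, against 1713 genes. Il2rb had 12, 24.5 and 57 reads (lowest, median and highest) in isotype control libraries and 12, 36 and 56 with the trap control, a difference of 0.57 (SE 0.297, edgeR adjusted p = 0.232, interval -0.06 to 1.19). Klrk1 had 8, 16.5 and 38 against 9, 18.5 and 30 reads, a difference of 0.29 (SE 0.341, edgeR adjusted p = 0.614). Both genes overlapped widely, and the trap control library C0464 had the highest CPM of set 1 in both. The other 5 genes had a median of 0 to 5.5 reads in either group. Ncr1 had 0 to 14 reads with the isotype control and 0 to 11 with the trap control, Klrd1 1 to 12 and 0 to 8, Klrb1c 0 to 4 and 0 to 4.04, and Xcl1 0 to 11 and 0 to 4. Ifng had 2 reads over the 10 isotype control libraries and 7 over the 6 trap control libraries, and without the filter its edgeR adjusted p was 0.164.

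The trap control group lies in both sets and shows what they differ by under 1 treatment. Of the 6 tested genes 5 were higher in set 2, against 49.9% of 16174 genes called in either direction and 24.3% higher. Ncr1 differed by 1.99 (edgeR adjusted p = 0.0013), Xcl1 by 2.00 (0.00642 for the adjusted p), Klrb1c by 1.51, Klrk1 by 1.16 and Il2rb by 0.82, while Klrd1 was at 0.50 (adjusted p = 0.43). On log2(TPM + 1) the median gene moved by 0.55 between the sets. These values between sets, 0.50 to 2.00, stand beside 0.86 to 1.40 for the members called between treatments within set 2.

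The interaction asks whether the trap had the same effect with and without PD-L1 binding: the difference of bifunctional and anti-PD-L1 in set 2, less that of trap control and isotype control in set 1. EdgeR called none of the 6 tested genes, against 7.91% of all genes. Of the 6, 3 had an unadjusted p under 0.05, as had 4355 of 16174 genes. DESeq2 called 1, Il2rb (0.88, adjusted p = 0.0462), and 1815 genes in all. By edgeR Il2rb was at 0.86 (adjusted p = 0.0775), Xcl1 at 1.74 (0.0937 for the adjusted p) and Ncr1 at 1.23 (0.158). With the set as a term, anti-PD-L1 against the isotype control gave no call among the 6 in edgeR or DESeq2. Of the 6, 1 had an unadjusted p under 0.05 (Xcl1, -1.78, edgeR adjusted p = 0.448), as had 1575 of 16174 genes. EdgeR called 0.0124% over all genes. Bifunctional against the isotype control gave no call in either tool. Of the 6, 1 had an unadjusted p under 0.05 (Il2rb, 0.87, edgeR adjusted p = 0.148), as had 3376 of 16174 genes. EdgeR called 2.39% over all genes. Both rest on the 4 and 6 trap control libraries that bridge the sets.

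Klrk1, Klrd1 and Klrb1c lie among the lectin-like receptor genes of chromosome 6, between 122270596 and 131247362 in mm10. Of 25 protein-coding Klr genes there, 7 had more than 3 reads in all 24 libraries of set 2 and 6 had so many in none. Klra2 was the most abundant on the CPM scale (11.5 CPM with the bifunctional protein), followed by Klrk1 (5.04 CPM), a scale that does not correct for transcript length. Klrb1 and Klra6 had 0 reads in set 2. Klra and Klrb1 genes differ in number and sequence between mouse strains, and the part of this in their reads was not tested.

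**Figure D3:**
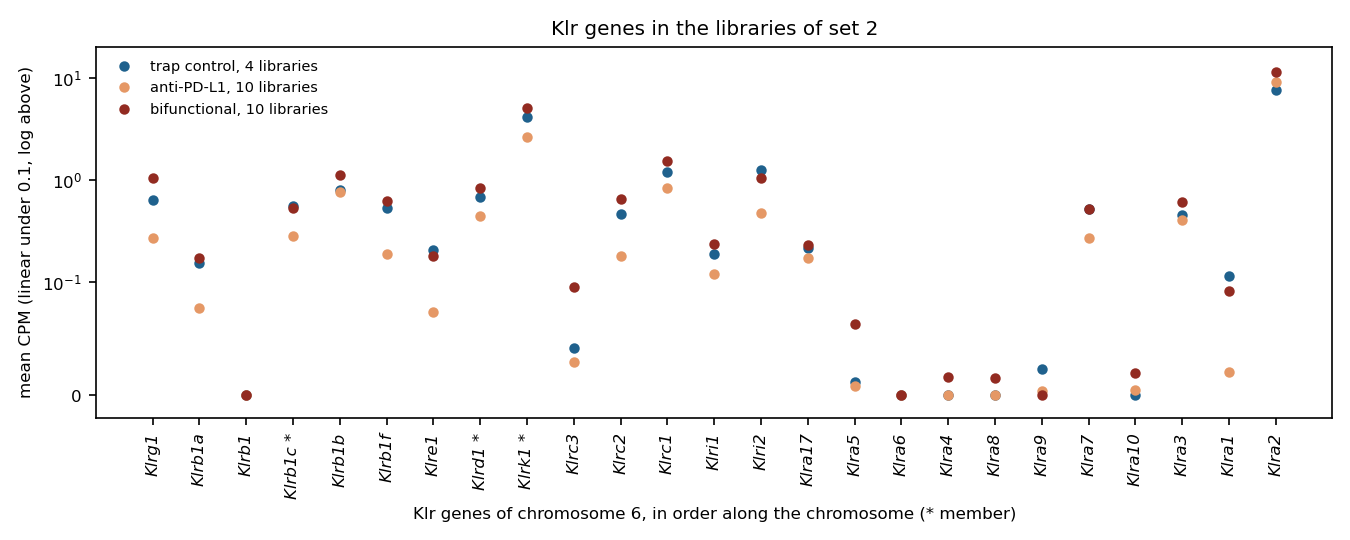
Mean CPM of 25 Klr genes in the 3 groups of set 2, in their order along chromosome 6, on an axis that is linear under 0.1 CPM and logarithmic above. Klrk1 moves from 2.6 (anti-PD-L1) to 5.04 CPM (bifunctional) and Klrd1 from 0.439 to 0.836 CPM.

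Within the groups of set 2, some libraries were high for most of the 7 genes. C0480 ranked first for all 7 in the bifunctional group, C0475 was among the top 3 for all 7 with anti-PD-L1, and C0465 ranked first for 6 of 7 among the 4 trap control libraries of set 2. Set 1 held such libraries too: among its 6 trap control libraries, C0464 and C0463 were each in the top 3 for 6 of 7 genes, with mean ranks of 1.71 and 2.71. In the isotype control group of set 1 no library was in the top 3 for more than 4 genes, and C0449 ranked first for Ncr1 and 10th for Xcl1. At the other end of the bifunctional group, C0488 had the highest mean rank, 8.57. After removal of group means over the 24 libraries of set 2, the 21 pairs of these genes had Pearson r of 0.24 to 0.76 with a median of 0.50, all above 0. The highest were Il2rb with Ifng (0.76), Klrd1 with Klrb1c (0.74) and Ncr1 with Il2rb (0.72), and the lowest was Klrk1 with Xcl1 (0.24). The libraries share depth and tissue make-up across these pairs, so the values are a description.

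**Figure D4:**
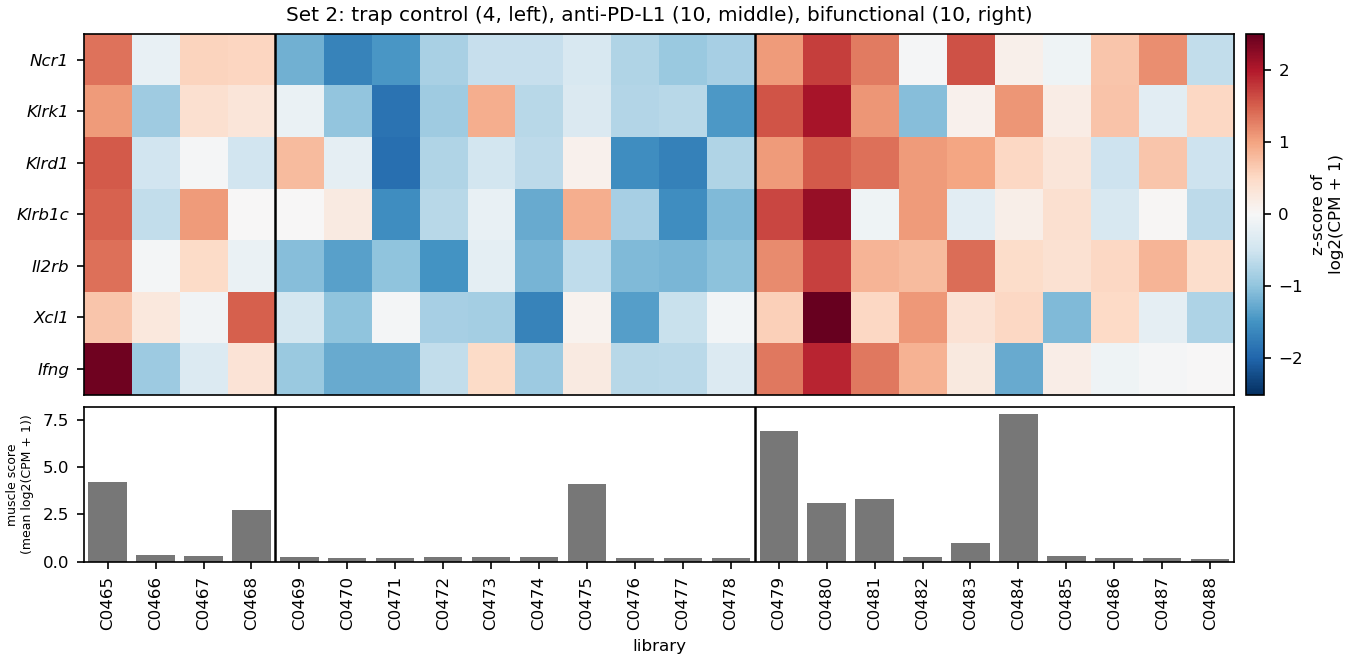
Z-scores of log2(CPM + 1) of the 7 genes in the 24 libraries of set 2 (top), and the mean log2(CPM + 1) of 9 skeletal muscle genes in the same libraries (bottom). C0480 is highest in all 7 rows of its group; its muscle score is 3.09, against 6.92 in C0479 and 7.77 in C0484.

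Group means were also removed before likeness was measured, so differences between treatments do not enter these values. Among 13510 genes with a mean of at least 1 CPM, those whose pattern over these 24 libraries was most like the mean of the 7 included Epha3 (Pearson r 0.85), Tgtp1 (0.84), Lag3 (0.83), Gm4759 (0.82), H2-DMb1 (0.82), Slamf8 (0.81), Gm12250 (0.80), Igtp (0.80) and Iigp1 (0.79). Most like Ncr1 alone were Batf2 (0.74), Gzma (0.72), Hk3 (0.71), Serpina3f (0.69), Gm17477 (0.69), Gm12250 (0.69), Skap1 (0.68), Serpina3g (0.68), Slamf8 (0.68) and Cxcl9 (0.67). Spearman's rho of the entries named was 0.67 to 0.82. The libraries share depth and tissue make-up here too.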

How the data were processed

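RNA of 40 tumors was measured by bulk sequencing after ribosomal depletion with random priming, per the labels' protocols. Bowtie2 2.3.1, RSEM 1.2.31 and mm10 are listed, without roles, per the submitters' processing notes; annotation and strand are not given in the sources used here. The authors deposited expected counts, which share multi-mapping reads between genes, and TPM. Of the counts 14% were not whole, and they were rounded. GENCODE M21 named 37607 IDs (96.4%). No sample column went unused.

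The members and gene lists were chosen with earlier results of these data known. Tests were two-sided edgeR 4.0.16 quasi-likelihood tests in R 4.3.3 with TMM scaling, the default filter by group and Benjamini-Hochberg adjustment over all genes, with a threshold of 0.05. Set 1 (16 libraries), set 2 (24) and, for contrasts across sets, 5 cells of group by set (40) were fitted separately. CPM values are TMM-scaled within a set. P-values measure the spread between mice. No 2 libraries of a group were duplicates (smallest chi-square per degree of freedom 8.91). Floors of 3 counts for a count of 0 and other depth limits cover counting error only.

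Alternatives were DESeq2 1.42.0 size factors and Wald test, other filters, limma 3.58.1 on log2(TPM + 1) or log2(TPM + 0.1), omission of structural RNA or of libraries, other sets of groups in the fit, and host tissue covariates. The named genes are the 7 members, up to 4 of each list by smallest adjusted p in bifunctional against anti-PD-L1, any others needed where a list counts up to 5, and the 10 most alike for each likeness. Tyrobp, Hcst, Eomes, Il15, Lck, Klra2, Klrb1, Klra6, Batf3, Cadm1, Flt3, Itgae, Itga2 and Tigit were added after their values were seen. Some genes that this rule names are not reported here. Ratios and plots used Python 3.11.15 with numpy 2.4.6, pandas 2.3.3, scipy 1.17.1 and matplotlib 3.10.9. The procedures were tested on simulated data.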

Additional observations from a re-analysis of the deposited data

Results flagged for a closer look

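The 7 genes and the ratio of Ncr1 to Cd3 genes were examined in each group and set of 4 to 10 libraries for a library far from the others, and 3 of these 40 combinations stood out; chance alone flags about 1 in 20. Klrk1 in the trap control library C0464 of set 1 was at 2.22 CPM, while the other 5 libraries lay between 0.523 and 1.07 CPM. Klrk1 in the anti-PD-L1 library C0473 was at 5.42 CPM against 1.22 to 3.26 CPM in the others, and without C0473 the rise of Klrk1 with the bifunctional protein was 1.14 (edgeR adjusted p = 0.00651). Xcl1 in the bifunctional library C0480 was at 1.31 CPM against 0.237 to 0.742 CPM in the others, and without C0480 and C0481 Xcl1 was no longer called, as given above.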

How the results depend on the processing

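In bifunctional against anti-PD-L1, Ncr1 and Il2rb stayed called under all 13 alternatives tried, including 2 chosen after seeing the data (without C0473, and without C0480 and C0481). The count of called members went from 5 to 3 with a minimum mean of 1 CPM, which tests fewer of them, and to 2 without C0479 and C0484 or with host tissue covariates, and that of all genes from 4014 to 760 and 870. Xcl1 was also lost with all 40 libraries in 1 fit (0.88, edgeR adjusted p = 0.0672).

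In trap control against anti-PD-L1 the Il2rb call was lost (0 members) without a filter, on both TPM scales, with all 40 libraries and with only the groups compared; all genes fell from 2 to 0, or to 1 with all 40 libraries. Leaving out 1 trap control library gave 0 to 1 members and 0 to 2 genes. In bifunctional against trap control 0 members were called throughout; all genes went from 1 to 214 with DESeq2 and to 0 without a filter, on both TPM scales, with all 40 libraries, with only the groups compared and without C0479 and C0484, and ran from 0 to 2 without 1 trap control library. Small differences there changed sign: Klrb1c to 0.04 and 0.23 and Xcl1 to 0.02 and 0.04 on log2(TPM + 1) and log2(TPM + 0.1), Klrb1c to 0.22 and 0.10 without C0465 or C0467 (range without 1 trap control library -0.26 to 0.22), Xcl1 to 0.14 without C0468 (range -0.18 to 0.14), Ncr1 to -0.03 without C0466 (range -0.03 to 0.30) or without C0480 and C0481, and the ratio of Ncr1 to Cd3 genes from -0.18 to 0.01 without C0479 and C0484.

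In set 1 the 1041 genes became 400 without a filter, 1713 with DESeq2, 2 on both TPM scales and 1576 in both fits of 40 libraries; none gave a member. Between the sets called members went from 5 to 3 at 1 CPM, where only 3 were tested. The interaction gave 1 member with DESeq2 and 2 on log2(TPM + 1), and 713, 59 and 33 genes in place of 1279 without a filter and on the 2 TPM scales. With the set as a term, anti-PD-L1 against isotype control gave 0 genes without a filter and on both TPM scales and 29 with DESeq2, and bifunctional against isotype control 43 without a filter, 865 with DESeq2 and 0 on both TPM scales. The cause of these changes was not tested. No paired analysis was possible because each library is a different mouse and the labels give no shared number. Depth limits what can be seen of Klrd1, Klrb1c and Xcl1, with group medians of 1.5 to 21.5 reads, and most of Ifng, with medians of 0 to 5.5.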

Other observations

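In each group of set 2 the library with the highest ranks for the 7 genes also held skeletal muscle transcripts. C0465 had a mean rank of 1.14 and a muscle score (mean log2(CPM + 1) of 9 muscle genes) of 4.23, C0475 had 1.71 and 4.08, and C0480 had 1 and 3.09. The order did not hold throughout: C0484, with the highest muscle score of set 2 (7.77), had a mean rank of 6.43 and no read of Ifng, and in set 1 the trap control library C0463 had a muscle score of 8.76 and a mean rank of 2.71, behind C0464 with 0.253 and 1.71. The part of host tissue in the levels of these genes was not tested.

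In bifunctional against anti-PD-L1 tumors the T cell kinase Lck, at 6.01 ± 1.72 CPM against 6.19 ± 0.829 CPM (SD, n = 10 each), was not called, at -0.04 (edgeR adjusted p = 0.838). Its level lay far above those of Cd3d, Cd3e and Cd3g with anti-PD-L1 (0.223, 0.199 and 0.413 CPM). Which cells gave the Lck reads was not tested, so its level is not a measure of T cells here.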
